A study of Mus musculus with 8 samples.

Results

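The TRBJ2 cluster is the group of joining (J) gene segments that lies between TRBD2 and TRBC2 in the mouse T cell receptor β (TRB) locus. Its chains were taken from single-cell TCR tables of mouse CD8+ T cells as all barcodes without a multiplet mark whose TRB chain carried a J call beginning with TRBJ2. The members were TRBJ2-1, TRBJ2-2, TRBJ2-3, TRBJ2-4, TRBJ2-5 and TRBJ2-7, out of 12 TRBJ genes called in these barcodes. They were carried by 122871 of 188544 barcodes with a TRB chain (65.2%), and no barcode was called TRBJ2-6, which the genome annotation lists as a pseudogene. Counting a chain once in each table, as 1 combination of V gene, J gene and CDR3 amino acid sequence, gave 89841 TRBJ2 chains of 138717 (64.8%), and 66256 different TRBJ2 chains in the whole series.

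The study profiled CD8+ T cells of the thymus and spleen of tumor-free mice (baseline), and of the thymus and tumor of mice bearing B16-OVA or B16-F10 melanoma. All mice were 8–12 weeks old and on the C57BL/6 background. They were either Pdcd1 fl/fl controls or Pdcd1 cKO mice, in which an E8I CD8-Cre deletes Pdcd1 (PD-1) in CD8+ T cells after positive selection. The labels describe 8 multiplexed sublibraries and give no genotype or tumor model for any animal, so neither was compared here. The 14 deposited tables carry names of 7 mice: each gave a thymus table, a spleen table was added for mouse-155A and for mouse-155C, and a tumor table for each of the other 5 (mouse-164C, mouse-164B, mouse-160C, mouse-160B, mouse-160A). Mouse and tissue are known only from the table names and no label places a sample in a group, so values are described and no groups were tested. Shares carry exact (Clopper–Pearson) 95% intervals that cover counting error only.

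A TRB chain is assembled in developing thymocytes by RAG-mediated joining of a D segment to a J segment and then of a V segment to the DJ joint. Each J segment is preceded by a recombination signal, a nonamer and a heptamer separated by a spacer, at which RAG cuts. Bases are then trimmed from the cut ends and others are added, so the CDR3, the loop that contacts peptide and MHC, is part germline and part newly made. A D1 segment can join either J cluster, whereas D2 lies downstream of the TRBJ1 cluster and joins TRBJ2 segments by deletion. T cells that have finished rearrangement pass positive and negative selection before they leave the thymus.

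The germline segments are shown because the length, the ends and the relative use of the TRBJ2 chains are described against them. Each line gives the 28 bases before the gene, which hold the recombination signal, followed by the gene. Capitals mark the J bases that lie inside the CDR3, up to the codon of its last phenylalanine. The sequences were read from the GRCm39 genome at the GENCODE vM39 gene positions, on the + strand, at chr6:41519660-41519737 for TRBJ2-1, chr6:41519863-41519941 for TRBJ2-2, chr6:41520129-41520205 for TRBJ2-3, chr6:41520268-41520344 for TRBJ2-4, chr6:41520359-41520435 for TRBJ2-5 and chr6:41520716-41520790 for TRBJ2-7.
TRBJ2-1: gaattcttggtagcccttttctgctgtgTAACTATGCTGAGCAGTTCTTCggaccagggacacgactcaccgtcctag
TRBJ2-2: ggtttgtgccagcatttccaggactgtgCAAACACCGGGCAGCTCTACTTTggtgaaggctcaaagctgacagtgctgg
TRBJ2-3: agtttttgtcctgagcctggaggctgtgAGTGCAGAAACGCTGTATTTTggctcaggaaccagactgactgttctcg
TRBJ2-4: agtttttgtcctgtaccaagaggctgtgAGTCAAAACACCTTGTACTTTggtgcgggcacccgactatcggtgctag
TRBJ2-5: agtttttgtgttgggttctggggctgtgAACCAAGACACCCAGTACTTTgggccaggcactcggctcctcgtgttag
TRBJ2-7: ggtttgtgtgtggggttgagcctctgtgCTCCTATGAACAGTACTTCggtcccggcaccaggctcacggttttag

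The 6 segments lie within a short stretch, with TRBJ2-1 at 577 bases and TRBJ2-7 at 1633 bases from the end of TRBD2. TRBJ2-3, TRBJ2-4 and TRBJ2-5 share 1 nonamer, AGTTTTTGT, and 1 heptamer, GGCTGTG, separated by 12 bases. TRBJ2-7 matched this heptamer at 5 of 7 bases and the nonamer at 7 of 9, TRBJ2-2 at 6 and 6, and TRBJ2-1 at 6 and 3. The last 5 heptamer bases, CTGTG, were the same in all members. The segments contribute different lengths to the CDR3. TRBJ2-7, the last segment of the cluster, has 19 germline bases inside it, TRBJ2-3, TRBJ2-4 and TRBJ2-5 have 21, TRBJ2-1 has 22 and TRBJ2-2 has 23.

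TRBJ2-7 was the most used member and TRBJ2-2 the least, and the order of the 6 genes was the same in all 14 tables when each distinct chain was counted once: TRBJ2-7, TRBJ2-1, TRBJ2-5, TRBJ2-3, TRBJ2-4, TRBJ2-2. In the thymus tables TRBJ2-7 formed 17.2% to 18.9% of all distinct TRB chains (median 18.0%, 7 tables). TRBJ2-1 followed with 11.8% to 13.8% (median 12.1%) and TRBJ2-5 with 10.6% to 12.1% (median 10.98%). TRBJ2-3 took 8.34% to 8.87% (median 8.62%), TRBJ2-4 took 7.43% to 7.81% (median 7.74%) and TRBJ2-2 took 5.04% to 5.77% (median 5.51%).
The range of TRBJ2-7 over the thymus tables did not meet that of any other member, nor did that of TRBJ2-2. Not every neighbour in this order was separable. The intervals of TRBJ2-3 and TRBJ2-4 overlapped in 11 of 14 tables, those of TRBJ2-1 and TRBJ2-5 in 6 and those of TRBJ2-5 and TRBJ2-3 in 1. TRBJ2-7 and TRBJ2-1, and TRBJ2-4 and TRBJ2-2, overlapped in none. The tables share chains, so they are not independent in this order. Of the distinct TRB chains of any J gene, 485 of 1662 in mouse-160A tumor were found in 1 mouse only. In mouse-160C tumor these were 1837 of 5072.

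By barcodes, which count expanded cells as often as they were captured, 10 of the 14 tables had the same order. The 7 thymus and 2 spleen tables and 1 tumor table kept it, and 4 tumor tables departed from it. In mouse-160A tumor TRBJ2-1 had 18.5% of TRB barcodes (95% interval 17.5 to 19.6) and TRBJ2-7 had 16.7% (15.7 to 17.7), intervals that overlap, and TRBJ2-4 reached 14.6% (13.6 to 15.6). TRBJ2-4 held 5.33% to 7.71% in the other 4 tumor tables. In mouse-160C tumor TRBJ2-2 reached 15.0% (14.4 to 15.6) against 2.27% to 6.93% in the other tumor tables, and TRBJ2-1 was at its lowest, 7.70%. In mouse-164B tumor the order changed only in that TRBJ2-4 (6.93%) stood above TRBJ2-3 (6.53%), whose intervals overlap. TRBJ2-7, first there as in the usual order, held 25.5% (24.8 to 26.3), against 16.7% to 21.9% in the other tumor tables. In mouse-164C tumor TRBJ2-3 reached 11.6% (11.3 to 11.98), where the other tumor tables had 4.11% to 9.005%. By distinct chains the high shares were lower. TRBJ2-4 had 7.34% in mouse-160A tumor against 7.80% in its thymus, a difference of −0.46 percentage points (−1.87 to 1.07), and TRBJ2-3 had 8.48% in mouse-164C tumor against 8.44% in its thymus, a difference of 0.04 (−0.55 to 0.62). TRBJ2-2 in mouse-160C tumor turned from the highest to the lowest value of the gene, 4.26% against 5.35% in the thymus, a difference of −1.09 (−1.79 to −0.36). TRBJ2-7 in mouse-164B tumor stayed above its thymus, 20.3% against 17.7%, a difference of 2.60 (1.52 to 3.69).

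**Figure D1:**
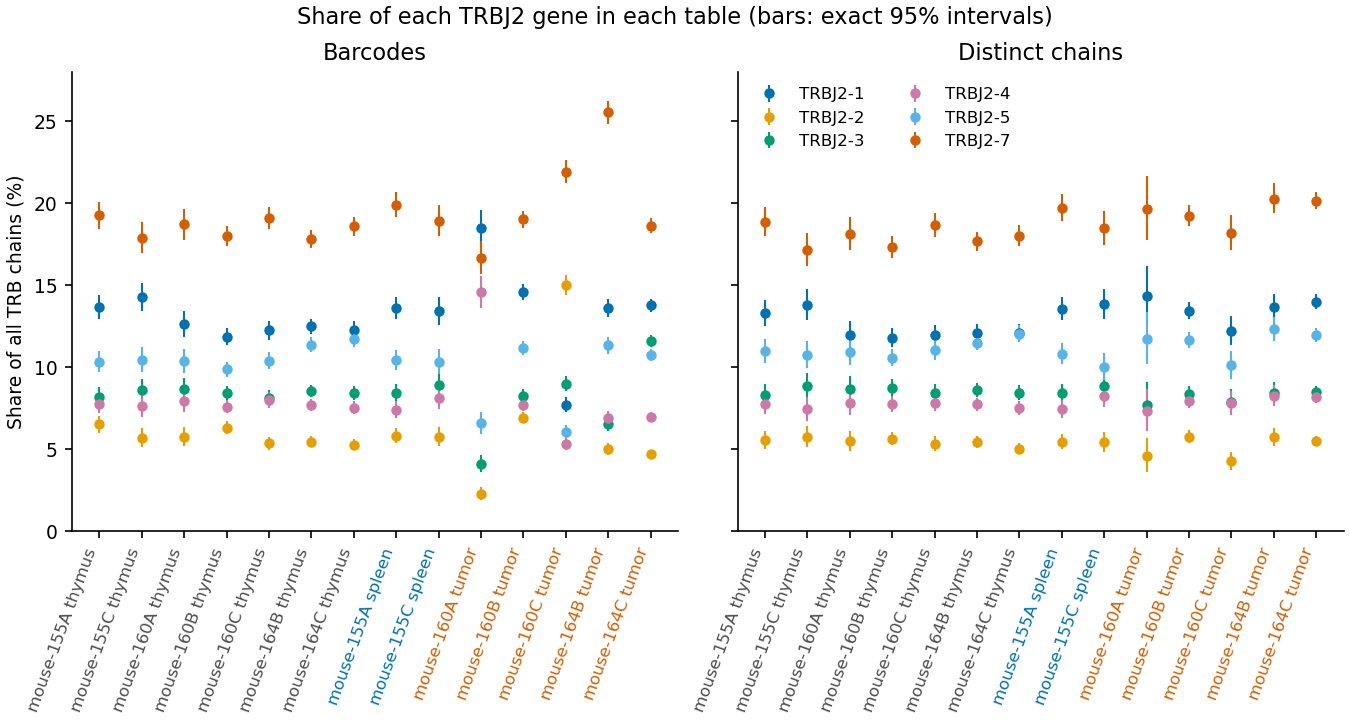
Share of each TRBJ2 gene among all TRB chains (vertical axis, percent) in the 14 tables (horizontal axis), by barcodes on the left and by distinct chains on the right. Points are shares and bars are exact 95% intervals. By distinct chains the 6 genes keep 1 order from table to table, and by barcodes 4 of the 5 tumor tables leave it.

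These high barcode shares were carried by few chains. In mouse-160A tumor 1 chain with TRBV13-1 made up 590 of the 770 TRBJ2-4 barcodes (76.6%), and without the 3 most frequent TRBJ2-4 chains the gene fell to 3.22% of the table. In the same tumor a TRBV13-2 chain, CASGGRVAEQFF, held 401 of the 978 TRBJ2-1 barcodes. In mouse-160C tumor 3 chains held 73.5% of the 2025 TRBJ2-2 barcodes: a TRBV1 chain (825), a TRBV14 chain with the CDR3 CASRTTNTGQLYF (443) and a TRBV4 chain (221). TRBJ2-2 was 4.47% of that table without them, against 4.26% by distinct chains. The same removal left other genes below their share by distinct chains. The 2 values were 3.22% and 7.34% for TRBJ2-4 in mouse-160A tumor and 17.1% and 20.3% for TRBJ2-7 in mouse-164B tumor. For TRBJ2-3 in mouse-164C tumor they were 7.22% and 8.48%. Expanded chains of the other genes stay in the total when 3 chains of 1 gene are left out. In mouse-164B tumor the TRBV13-1 chain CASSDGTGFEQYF held 1324 of 3707 TRBJ2-7 barcodes (35.7%), and in mouse-164C tumor the TRBV20 chain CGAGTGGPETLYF held 989 of 3472 TRBJ2-3 barcodes (28.5%). Mouse-160B tumor differed from these. Its most frequent TRBJ2 chain, with TRBV29 and TRBJ2-2, had 256 barcodes, 1.24% of the table, and its 10 most frequent TRB chains of any J gene held 5.23% of the barcodes, against 14.6% to 44.8% in the other tumor tables.

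**Figure D2:**
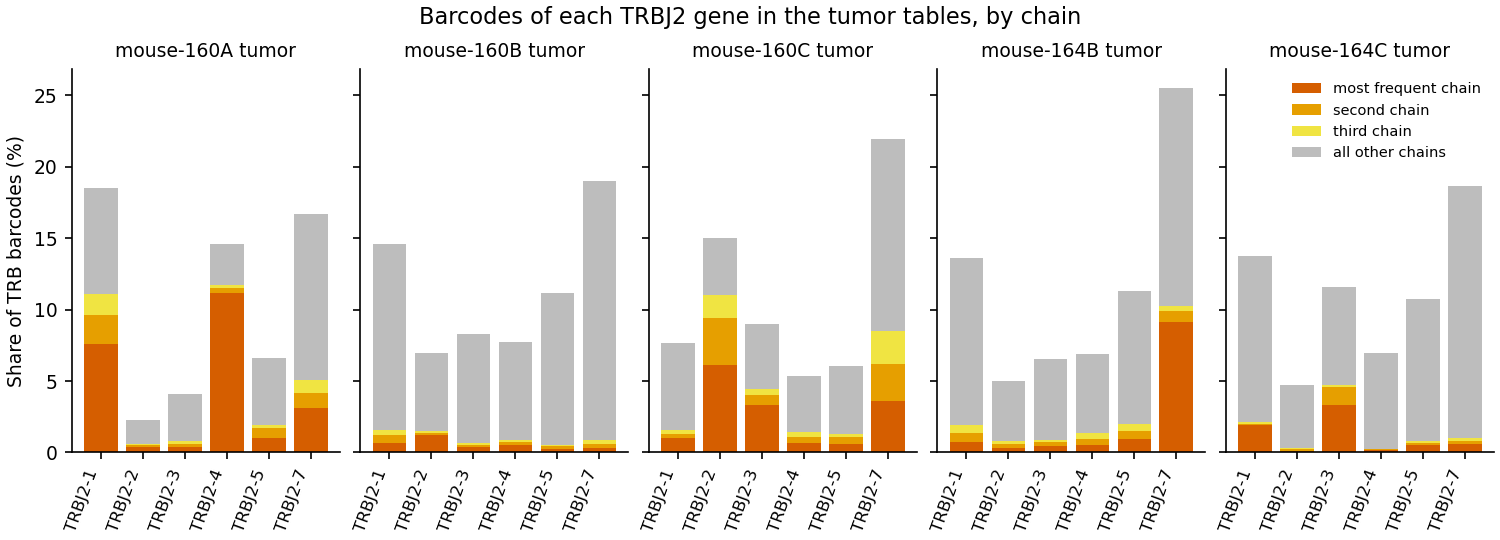
Barcodes of each TRBJ2 gene as a share of all TRB barcodes (vertical axis, percent) in the 5 tumor tables, divided into the 3 most frequent chains of the gene and all other chains. One chain forms most of TRBJ2-4 in mouse-160A tumor, and 3 chains form most of TRBJ2-2 in mouse-160C tumor.

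The nucleotide CDR3 of the most frequent TRBJ2 chain of each tumor is shown because these chains weigh most in the barcode shares above. Capitals mark the bases aligned to the J segment, and the sequences are those of the deposited annotation.
mouse-160A tumor, TRBV13-1 and TRBJ2-4: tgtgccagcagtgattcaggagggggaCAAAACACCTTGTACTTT
mouse-160B tumor, TRBV29 and TRBJ2-2: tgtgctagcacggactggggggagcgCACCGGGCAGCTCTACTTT
mouse-160C tumor, TRBV1 and TRBJ2-2: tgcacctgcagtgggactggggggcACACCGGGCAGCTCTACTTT
mouse-164B tumor, TRBV13-1 and TRBJ2-7: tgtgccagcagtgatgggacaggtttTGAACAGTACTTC
mouse-164C tumor, TRBV20 and TRBJ2-3: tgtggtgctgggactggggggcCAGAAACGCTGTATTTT
Of the annotated barcodes of these chains, 589 of 590, 255 of 256, 822 of 825, 1323 of 1324 and 312 of 312 had exactly the sequence shown. Each of the 5 chains therefore had essentially 1 nucleotide form among its annotated barcodes. In mouse-164C tumor only 312 of the 989 barcodes of the chain were annotated. The 5 chains had lost 3, 4, 3, 6 and 4 germline J bases in the order shown.

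The leading tumor chains were not confined to their own mouse. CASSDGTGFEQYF, with 1324 barcodes in mouse-164B tumor, was also present in all 12 tables of the other 6 mice, with 37 to 112 barcodes in each and 661 in all. Of these 661, 98.6% rested on 1 TRB transcript and 6.51% had a TRA chain. In its own tumor, 32.1% rested on 1 transcript and 77.0% had a TRA chain. The leading TRBV13-1 and TRBJ2-4 chain of mouse-160A tumor was also found there, with 28 to 91 barcodes in each of the 12 tables of other mice, 96.6% of them at 1 transcript. A TRA chain was present in 10.7% of its barcodes in its own tumor and in 2.51% in other mice. The 10.7% was below the 77.0% of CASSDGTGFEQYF in mouse-164B tumor. The leading chain of mouse-160C tumor had 18.2% and 2.19%. Those of mouse-160B and mouse-164C tumor had 65.2% and 85.8% in their own tumor, against 4.95% and 2.16% in these 12 tables. For the leading chain of mouse-160C tumor these tables had 2 to 54 barcodes each and for that of mouse-164C tumor 9 to 30, while that of mouse-160B tumor was found in 11 of the 12. A chain most abundant in the tumor of another mouse was the most frequent TRBJ2 chain in 6 of the 7 thymus tables and in mouse-155A spleen. The barcodes themselves were not shared, since 0 barcodes occurred in more than 1 table. The part that this spread plays in the thymus, spleen and tumor values was not tested, and the cluster share and the differences of each gene within mice are also given for chains whose barcodes carried a TRA chain.

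Chains found in several mice were common in each gene when all barcodes were used and much rarer at 2 or more transcripts. Of the TRBJ2 chains counted per table, 41.6% were found in more than 1 mouse, and 10.8% when only barcodes with at least 2 TRB transcripts were kept. The TRBJ1 cluster had 38.4% and 10.8%. TRBJ2-7 had the highest share at 2 or more transcripts, 14.2%, and TRBJ2-2 the lowest, 8.05%. Among chains at 2 or more transcripts, the TRBJ2-7 chain found in most mice was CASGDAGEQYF with TRBV13-2, in 6 mice from 15 barcodes, and its annotated barcodes held 7 different nucleotide sequences. The TRBJ2-5 chain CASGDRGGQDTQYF, also with TRBV13-2, was in 5 mice from 8 barcodes and likewise had 7 nucleotide forms, 6 of them at 2 or more transcripts. In contrast, the leading TRBJ2-4 chain of mouse-160A tumor was in 7 mice at 2 or more transcripts with 419 barcodes and 1 nucleotide form. Most of these 419 were in its own tumor, where 32.4% of its 590 barcodes rested on 1 transcript. In the 12 tables of other mice 96.6% of its 597 barcodes did. Of the chains annotated in several mice, 28.4% of TRBJ2-7 chains and 25.3% of TRBJ2-5 chains had more than 1 nucleotide form, against 16.5% to 20.2% in the other 4 genes.

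The TRBJ2 cluster as a whole took 62.1% to 65.7% of TRB barcodes in the thymus tables (median 63.9%), 65.5% and 65.6% in the spleen tables, and 62.8% to 68.98% in the tumor tables (62.8% in mouse-160A, 65.0% in mouse-160C, 66.5% in mouse-164C, 67.7% in mouse-160B, 68.98% in mouse-164B). The ranges of thymus and tumor overlapped. Within a mouse, the spleen or tumor share was above the thymus share in 5 of 7 mice. In mouse-160B the tumor was 5.61 percentage points higher (95% interval 4.61 to 6.60). Mouse-164B followed with 5.57 (4.56 to 6.58), mouse-164C with 2.60 (1.71 to 3.49) and mouse-160C with 1.82 (0.65 to 2.99). In mouse-155C it was 1.04 (−0.62 to 2.70), in mouse-155A −0.13 (−1.48 to 1.22) and in mouse-160A −1.27 (−3.03 to 0.49), 3 intervals that include 0. These values depend on what is counted. Without the most frequent TRB chain of each table, of any J gene, the difference was 2.21 in mouse-164B, −5.70 in mouse-160A and −0.12 in mouse-160C. Weighted by transcripts it was −1.22 in mouse-164C. At 2 or more transcripts the spleen stood 4.38 above the thymus in mouse-155A and 6.03 above it in mouse-155C, and 6 of 7 mice were above 0.

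Counting each distinct chain once removed the weight of expanded chains and changed the direction in 3 mice. The share was then higher outside the thymus in 6 of 7 mice, among them mouse-160A by 2.38 percentage points (−0.28 to 5.01) and mouse-155A by 0.70 (−0.77 to 2.17). In mouse-160C it was lower in the tumor, 60.5% against 63.3% in the thymus, a difference of −2.80 (−4.45 to −1.16). When only chains of barcodes with a TRA chain were counted, the 7 thymus tables lay between 61.7% and 63.4%, the spleen tables at 64.4% and 65.1%, and the 5 tumor tables between 66.5% and 68.5%, so the thymus did not overlap with the others. The difference was then above 0 in 7 of 7 mice, from 1.89 to 5.57 percentage points with a median of 3.13, and the interval was above 0 in 3 of them. By barcodes with a TRA chain, 6 of 7 mice were above 0. Mouse-160A tumor was below its thymus, with a difference of −12.5 percentage points. Expanded chains did not keep their relative weight in this count. In mouse-160A tumor a TRA chain was present in 10.7% of the 590 barcodes of the leading TRBV13-1 and TRBJ2-4 chain. For the TRBJ2-1 chain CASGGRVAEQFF it was present in 65.6% of 401. The part that this plays in the difference was not tested. The count of distinct paired chains was chosen after the values were seen. Thymus and tumor cells were isolated with different kits, and kit and tissue cannot be told apart.

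**Figure D3:**
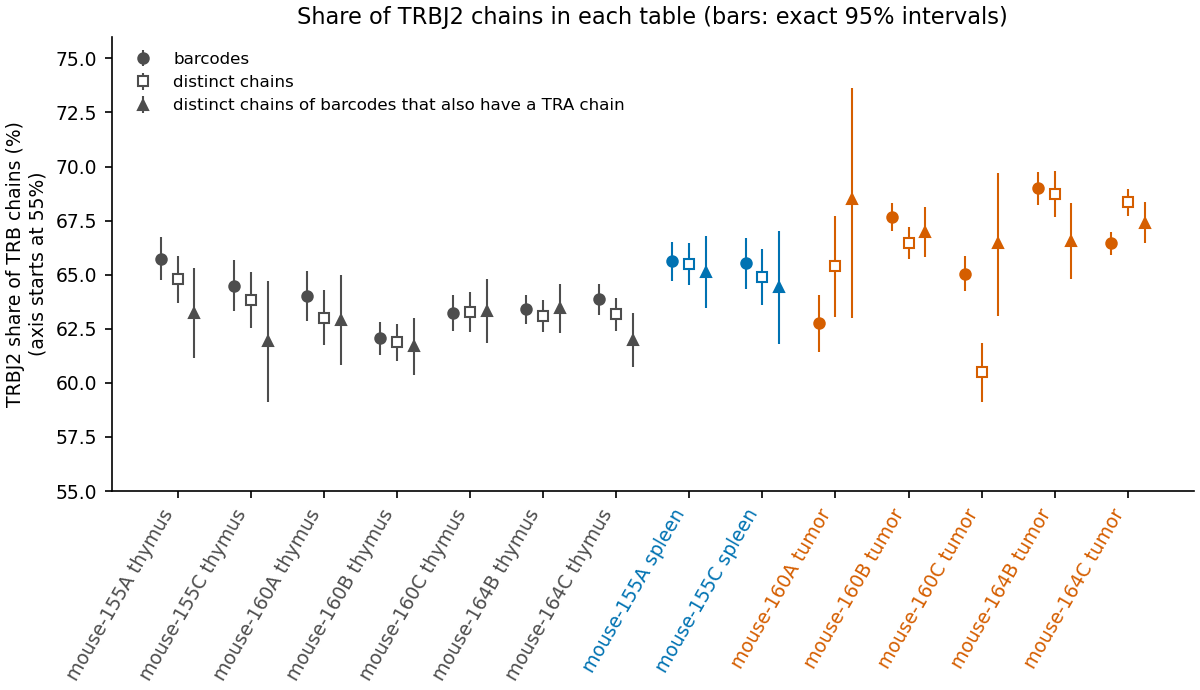
TRBJ2 share of TRB chains (vertical axis, percent, starting at 55%) in each of the 14 tables, by barcodes (circles), distinct chains (open squares) and distinct chains of barcodes that also have a TRA chain (triangles). Bars are exact 95% intervals, and colors mark thymus, spleen and tumor. Only the triangles separate the thymus tables from all others, with 63.4% as the highest thymus value and 64.4% as the lowest spleen value.

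Among the members counted by distinct chains, TRBJ2-1 and TRBJ2-7, the most used genes, were most often higher outside the thymus. By distinct chains TRBJ2-1 was above the thymus value in 7 of 7 mice, by 0.03 to 2.44 percentage points, with 4 intervals above 0. In these 4 mice its thymus and tumor shares were 11.9% and 14.4% in mouse-160A, 11.8% and 13.5% in mouse-160B, 12.1% and 13.7% in mouse-164B, and 12.1% and 13.996% in mouse-164C. TRBJ2-7 was above in 6 of 7 mice, with a median difference of 1.54 and 3 intervals above 0. It was lower in the tumor of mouse-160C by −0.47 (−1.77 to 0.85). The other 4 genes were above the thymus value in 3 or 4 of 7 mice, and their median differences lay between −0.18 and 0.19 percentage points. By distinct chains of barcodes with a TRA chain, TRBJ2-1 and TRBJ2-7 were both above in 7 of 7 mice, with 2 and 3 intervals above 0. In that count TRBJ2-2 and TRBJ2-3 were above in 6 of 7 with no interval above 0, TRBJ2-4 and TRBJ2-5 in 4 of 7 with 1 interval above 0 each, and the median differences of these 4 genes lay between 0.06 and 0.33. By barcodes TRBJ2-1 was above in 4 of 7 mice, all 4 with intervals above 0, and had 1 interval below 0, and TRBJ2-7 was above in 6 of 7, with 3 intervals above 0 and 1 below. TRBJ2-3 was also above in 4 of 7 by barcodes, TRBJ2-2 and TRBJ2-4 in 3 and TRBJ2-5 in 2. By distinct chains found in 1 mouse only, TRBJ2-1 was above in 7 of 7 and TRBJ2-7 and TRBJ2-4 in 6. TRBJ2-3 and TRBJ2-5 were then above in 5 and TRBJ2-2 in 4. TRBJ2-7 had 3 intervals above 0 and 1 below there, TRBJ2-1 had 2 above, and TRBJ2-4 and TRBJ2-5 had 1 above each.

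TRBJ2 chains had CDR3s of 14.04 amino acids on average in the thymus tables (SD 1.57 over 46203 distinct chains), counted from the conserved cysteine to the last phenylalanine, and TRBJ1 chains 13.9 (SD 1.57). Among the members, TRBJ2-7 chains were the shortest, with a mean of 13.2 residues (SD 1.53), and TRBJ2-3 (14.7, SD 1.40) and TRBJ2-2 (14.7, SD 1.38) the longest. TRBJ2-1 (14.3), TRBJ2-4 (14.2) and TRBJ2-5 (14.1) lay between. At 13 residues or fewer stood 54.4% of TRBJ2-7 chains and 15.4% of TRBJ2-2 chains. The last place of TRBJ2-7 held in all tables: its means ran from 13.2 to 13.3 over all 14 tables, and the lowest mean of any other gene in any table was 13.9, for TRBJ2-5. The genes in the middle changed places, and TRBJ2-4 was longer than TRBJ2-1 in mouse-160A thymus (14.32 against 14.25) and mouse-160A tumor (14.34 against 14.15), among others. Within mice, the mean over all TRBJ2 chains was shorter in spleen or tumor than in thymus in 7 of 7 mice, by 0.02 to 0.09 residues. TRBJ1 chains were shorter in 7 of 7 as well, by 0.04 to 0.17 residues, so this small step was not limited to TRBJ2.

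The differences in length lay mostly in the J part of the CDR3. In 74023 distinct nucleotide chains with a usable annotation, TRBJ2-3 had lost the fewest germline bases, 1.41 on average, and 47.9% of its chains had lost none. TRBJ2-4 had lost 2.26 (38.6% none), TRBJ2-2 2.34 (24.9%), TRBJ2-5 2.98 (19.9%), TRBJ2-1 3.41 (13.02%) and TRBJ2-7 3.75 (19.4%). The ranges over tables were narrow, 1.27 to 1.62 bases for TRBJ2-3 and 3.61 to 3.89 for TRBJ2-7. TRBJ2-7 had the shortest germline stretch and lost most from it, which left 15.3 J bases in its average CDR3, whereas TRBJ2-2 kept 20.7 and TRBJ2-3 kept 19.6. The TRBJ2-3 CDR3 was 4.47 bases longer than that of TRBJ2-7, of which 4.34 lay in the J part, 0.00 in the V part and 0.12 between them. TRBJ2-2 chains kept 5.41 more J bases than TRBJ2-7 chains but had 0.76 fewer bases between V and J, and were 4.55 bases longer.
The number of bases lost was not smooth. TRBJ2-7 chains had most often lost 4 bases (22.3% of chains), TRBJ2-1 chains 3 (18.8%), and the other 4 genes none. A base that was added by chance and equals the germline base is counted as kept, which lowers the number lost in each gene.

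**Figure D4:**
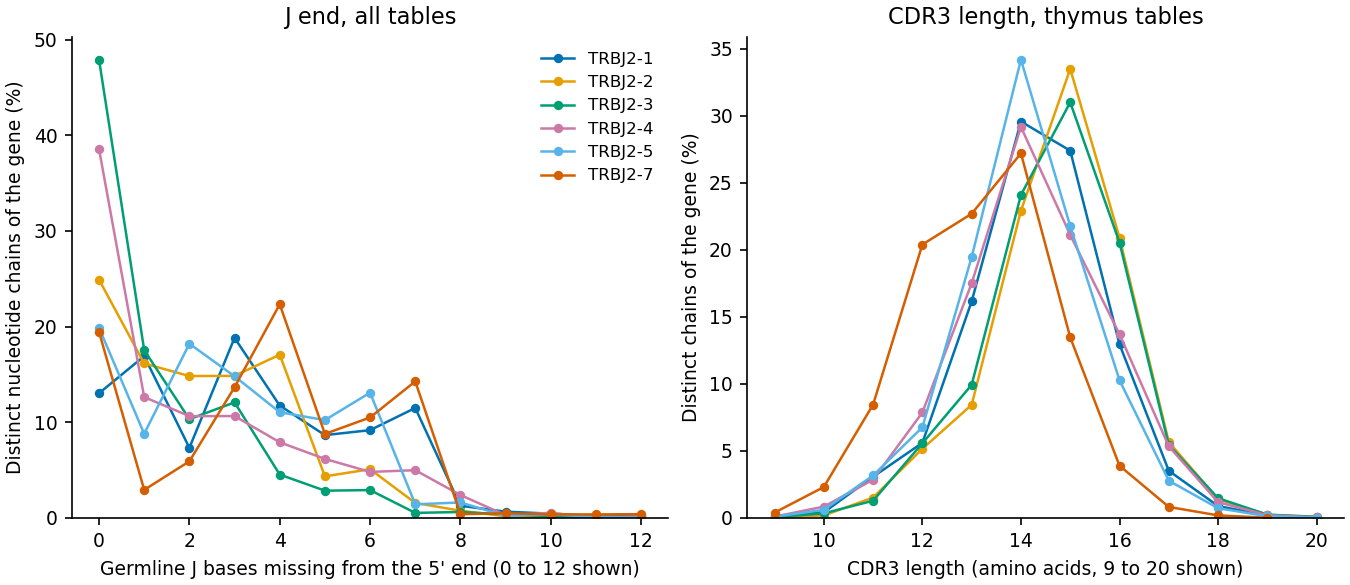
Left, share of distinct nucleotide chains of each gene (vertical axis, percent) by the number of germline J bases missing from the 5' end (horizontal axis), all tables. Right, share of distinct chains by CDR3 length in amino acids, thymus tables. TRBJ2-3 and TRBJ2-4 have their highest point at no bases lost, and the TRBJ2-7 length curve lies to the left of the others.

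The same ends show in the protein. The last 6 residues of the CDR3 were TGQLYF in 91.6% of TRBJ2-2 chains and AETLYF in 87.4% of TRBJ2-3 chains. They were QNTLYF in 71.9% of TRBJ2-4 chains, YAEQFF in 67.5% of TRBJ2-1 chains and QDTQYF in 61.7% of TRBJ2-5 chains. TRBJ2-7 had the most varied end, with SYEQYF in 24.2% and GYEQYF in 12.9% of chains. Its last 4 residues, EQYF, were nonetheless present in 97.6% of chains, so the variation lay at the fifth and sixth residues from the end.

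D segment calls separated the clusters. Of TRBJ2 chains with a D call, 55.8% (55.4 to 56.2) were assigned TRBD2, with a range of 54.3% to 57.3% over tables, against 7.81% (7.52 to 8.10) of TRBJ1 chains. Short D matches are uncertain. Among nucleotide chains with at least 8 matched D bases the TRBD2 share was 72.7% (72.2 to 73.2) in TRBJ2 and 3.74% (3.35 to 4.16) in TRBJ1, and at 10 or more bases it was 79.9% (79.3 to 80.5) and 1.29% (0.92 to 1.76). TRBJ2-2 had the lowest TRBD2 share at each of the 3 cut-offs, 45.5%, 63.6% and 73.3%, and the other members had 54.7% to 59.7% at any match length. TRBC1 and TRBC2, the constant genes downstream of the J clusters, gave no such split in the files. Of TRBJ2 chains with a constant gene call, 59491 of 59726 were called TRBC1 and 235 TRBC2, although TRBC2 is the constant gene next to TRBJ2. The call was not used.

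Pairing with V genes was close to the product of V and J use. For 19 TRBV genes with at least 1% of the 73177 distinct thymus chains, the observed number of chains was divided by the number that V and J shares would give. Of 114 pairs with a TRBJ2 gene, 100 lay between 0.8 and 1.2, 6 were at 1.2 or more and 8 at 0.8 or less. TRBJ2-5 held 7 of these 14. It paired with TRBV12-2 in 657 chains where 410 would be given (ratio 1.60), and this ratio was above 1 in all 14 tables (1.34 to 1.95). In contrast, TRBJ2-5 with TRBV26 had a ratio of 0.65, below 1 in 12 of 14 tables. TRBV17, the V gene with the highest share of TRBJ2 chains, paired with TRBJ2-2 at 1.46 (154 chains, above 1 in 12 tables) and with TRBJ2-1 at 1.33 (above 1 in 13 tables), but with TRBJ2-4 at 0.74 (below 1 in 11).
The remaining extremes were smaller. TRBV15 was the highest partner of TRBJ2-7 (1.23, above 1 in 14 tables) and of TRBJ2-3 (1.21), and TRBV4 that of TRBJ2-4 (1.23). The lowest partners were TRBV1 for TRBJ2-7 (0.80, below 1 in 14 tables), TRBV29 for TRBJ2-1 (0.86, below 1 in 14 tables), TRBV12-2 for TRBJ2-3 (0.85) and TRBV20 for TRBJ2-2 (0.81, from 52 chains). In spleen and tumor, 82 of the 114 pairs lay on the same side of 1 as in the thymus, and the TRBV12-2 and TRBJ2-5 ratio was 1.40. Chains that recur in several tables are counted in each, so tables are not independent in these counts.

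**Figure D5:**
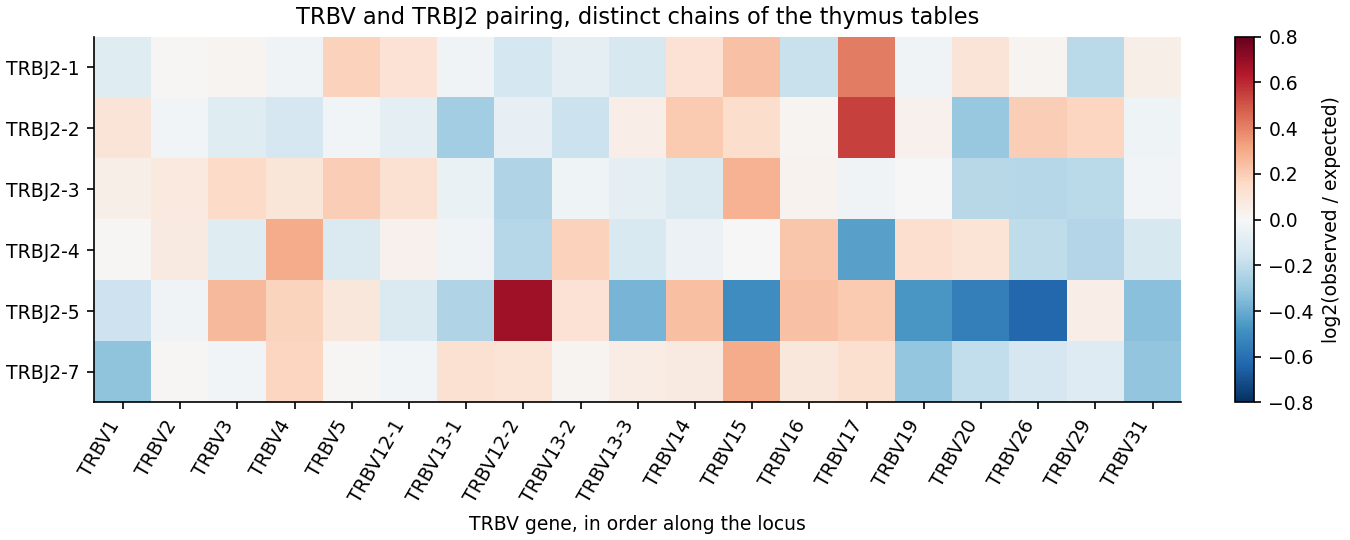
Observed over expected number of distinct thymus chains for 19 TRBV genes (horizontal axis, in the order of the locus) and the 6 TRBJ2 genes (vertical axis), as log2 in color. Red is above and blue below the product of V and J shares. TRBJ2-5 has the darkest cells on both sides, with TRBV12-2 at a ratio of 1.60 and TRBV26 at 0.65.

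V profiles were compared by the Jensen–Shannon distance, which runs from 0 for identical profiles to 1. The 15 pairs of TRBJ2 genes lay at 0.049 to 0.108 (median 0.071). The 36 pairs of a TRBJ2 and a TRBJ1 gene lay at 0.061 to 0.229 (median 0.116), ranges that overlap. TRBJ1-4, named after its values were seen, was at 0.061 from TRBJ2-3 and at 0.067 from TRBJ2-2, for which it was the nearest gene after TRBJ2-1. TRBJ2-1 and TRBJ2-3 were nearest (0.049), TRBJ2-1 was also the nearest gene of TRBJ2-2 and TRBJ2-7, and TRBJ2-3 that of TRBJ2-4. TRBJ2-5 had the most distant nearest gene, TRBJ2-7 at 0.087. Seen from the V side, the share of chains that used a TRBJ2 gene ran from 56.3% (54.3 to 58.3) for TRBV26 to 71.0% (68.9 to 73.0) for TRBV17 in the thymus. In spleen and tumor the same genes had 62.3% and 74.9%. With tables pooled, each of the 19 V genes had a higher TRBJ2 share in spleen and tumor than in thymus. The cluster share by distinct chains was not higher in each mouse, with 60.5% in mouse-160C tumor against 63.3% in its thymus.

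A second TRB chain was recorded in 23835 barcodes. It used a TRBJ2 gene in 70.1% (69.4 to 70.8) of barcodes whose first chain was TRBJ2 and in 50.8% (49.7 to 51.9) of those whose first chain was TRBJ1, and the first was higher in 14 of 14 tables. Near copies entered this count, since in 15.2% and 14.9% of the barcodes the second CDR3 differed from the first by at most 1 residue. Without these the shares were 64.7% and 59.7%. When the second chain also had another V gene, they were 63.3% (62.5 to 64.2) and 63.5% (62.3 to 64.7), and the difference was gone. These restrictions were chosen after the values were seen.

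The tables hold TCR chains only, so CD8 and other surface markers could not be checked. Chain pairs of invariant NKT type, TRAV11 or TRAV11D with TRAJ18, were present in 2426 thymus barcodes against 26708 other paired thymus barcodes, in 18 spleen barcodes and in 40 tumor barcodes. TRBJ2 genes formed 61.8% (59.9 to 63.8) of the thymus NKT-type chains and 62.8% (62.2 to 63.4) of the other paired thymus chains, intervals that overlap. A pair of MAIT type, TRAV1 with TRAJ33, was found in 1 barcode.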

How the data were processed

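Parse Evercode TCR libraries of CD8+ T cells were assembled and annotated by the authors with the Parse Biosciences pipeline. No version of it is given in the sources used here, nor its V(D)J reference. The submitters' processing notes name GRCm39. The deposited barcode tables give, per barcode, V, D, J and C calls, CDR3 sequences, a multiplet mark and transcript counts. The deposited annotation tables give nucleotide CDR3s and alignments with transcript counts. They covered 82.1% of the TRB barcodes, 11 tables in full and 3 in part (mouse-164C tumor 30.4%, mouse-164B thymus 41.1%, mouse-160B thymus 92.7%). The clonotype tables were not used.

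All 23733 TRB barcodes with a multiplet mark were left out. The tables held 5281 to 29894 remaining TRB barcodes each, with a median of 1 or 2 TRB transcripts, and 53.3% of TRBJ2 and 53.1% of TRBJ1 barcodes rested on 1 transcript. A TRA chain was present in 35.3% and 35.8%. Shares also depend on the transcripts required, as the closing section shows. Animal and tissue were read from the name of each table, since the labels assign none, and all 8 sublibraries stayed ungrouped.

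Shares carry exact Clopper–Pearson 95% intervals, differences of shares intervals combined from both, all for counting error only. No groups were tested, since cells and chains are not replicates and the labels form no groups. Dixon's outlier rule was applied to single tables within a tissue, for the flagged results only. V and J pairing used observed over expected numbers of distinct chains, and profiles the Jensen–Shannon distance (log base 2). J bases lost were counted from the deposited alignment against the germline length, for 99.8% of TRBJ2 nucleotide chains. The pairing and interval code was tested on simulated data. Python 3.11.15, pandas 2.3.3, numpy 2.4.6, scipy 1.17.1 and matplotlib 3.10.9 were used.

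Named items were all TRBJ2 genes, the V genes with the highest and lowest ratio for each (at least 1% of thymus chains), the nearest V profile, the most frequent TRBJ2 chain of each table, the chain of each gene found in most animals, and the most frequent last 6 residues. Further chains of 3 tumors were named after their values were seen. Members and lists were chosen with earlier results of these data known. Alternatives counted paired barcodes, barcodes with at least 2 transcripts, multiplets, distinct chains, nucleotide chains or transcripts. Others left out barcodes with a second TRB chain, chains of several animals, NKT-type barcodes, 1 sublibrary, or the most frequent TRB chain of each table. That chain could have any J gene, so it need not be the leading TRBJ2 chain.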

Additional observations from a re-analysis of the deposited data

Results flagged for a closer look

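Dixon's outlier rule, which sets the gap between an end value and its neighbour against the range, was applied to 40 sets of values. The sets covered the 7 thymus or the 5 tumor tables. They held the shares of the cluster and of each gene, and the mean CDR3 length of each gene. In 2 sets a table lay far from the others, under a rule that flags 1 in 20 by chance. The sets come from the same tables and are not independent, so 2 of 40 cannot be weighed against that rate. TRBJ2-4 took 14.6% of TRB barcodes in mouse-160A tumor, and 5.33% to 7.71% in the other 4 tumors. The mean CDR3 of TRBJ2-3 was 14.8 residues in the same tumor, from 128 distinct chains, and 14.7 in the other 4.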

How the results depend on the processing

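Without 1 of the 8 sublibraries, all 168 cluster shares and differences stayed within the counting interval, and all 96 gene medians within 1 SD over tables. No paired test was run. The sublibraries, which are the samples of the labels, belong to no group, and mouse and tissue are known only from the table names. Thymus and spleen or tumor of a mouse were set side by side, with the difference given for each mouse. Requiring 2 transcripts moved the cluster share beyond its interval in 11 of 14 tables. Cluster values beyond the counting interval follow, and the cause was not tested. With a TRA chain required, the TRBJ2 share was 63.2% in mouse-155A thymus, 62.3% in mouse-155C thymus, 62% in mouse-164C thymus, 64.7% in mouse-155A spleen, 51% in mouse-160A tumor, 68.3% in mouse-160B tumor, 73.2% in mouse-160C tumor, 71.1% in mouse-164B tumor and 64.4% in mouse-164C tumor. With at least 2 TRB transcripts, the TRBJ2 share was 62.8% in mouse-155A thymus, 60.7% in mouse-155C thymus, 62.8% in mouse-160A thymus, 61.1% in mouse-160B thymus, 64.1% in mouse-164B thymus, 62.4% in mouse-164C thymus, 67.1% in mouse-155A spleen, 66.8% in mouse-155C spleen, 70.4% in mouse-160B tumor, 68.4% in mouse-160C tumor and 65.4% in mouse-164C tumor. Without chains of several animals, the TRBJ2 share was 61% in mouse-155A thymus, 61.1% in mouse-155C thymus, 60.8% in mouse-160A thymus, 59.9% in mouse-160B thymus, 61.8% in mouse-160C thymus, 62% in mouse-164B thymus, 62.1% in mouse-164C thymus, 63% in mouse-155C spleen, 66.8% in mouse-160B tumor, 60.2% in mouse-160C tumor, 67.9% in mouse-164B tumor and 67.6% in mouse-164C tumor. Weighted by transcripts, the TRBJ2 share was 63.5% in mouse-160B thymus, 65.3% in mouse-160C thymus, 66.1% in mouse-164B thymus, 67.2% in mouse-155A spleen, 71.8% in mouse-160B tumor, 67.5% in mouse-160C tumor and 63.3% in mouse-164C tumor. By distinct chains, the TRBJ2 share was 65.4% in mouse-160A tumor, 66.5% in mouse-160B tumor, 60.5% in mouse-160C tumor and 68.3% in mouse-164C tumor. By distinct nucleotide chains, the TRBJ2 share was 65.5% in mouse-160A tumor, 66.5% in mouse-160B tumor, 60.5% in mouse-160C tumor and 68% in mouse-164C tumor. Without the most frequent TRB chain of any J gene, the TRBJ2 share was 58.1% in mouse-160A tumor, 62.8% in mouse-160C tumor, 65.9% in mouse-164B tumor and 69.4% in mouse-164C tumor. With multiplets, the TRBJ2 share was 65.9% in mouse-160C tumor and 65.8% in mouse-164C tumor.

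The spleen or tumor minus thymus difference, in percentage points, changed as follows. With a TRA chain required, it was 1.49 for mouse-155A, −12.5 for mouse-160A, 10.1 for mouse-160C and 7.6 for mouse-164B. With at least 2 TRB transcripts, it was 4.38 for mouse-155A, 6.03 for mouse-155C, 9.35 for mouse-160B, 4.65 for mouse-160C and 4.44 for mouse-164B. Without chains of several animals, it was 4.29 for mouse-155A, 2.33 for mouse-160A, 6.93 for mouse-160B, −1.61 for mouse-160C and 5.51 for mouse-164C. Weighted by transcripts, it was 1.23 for mouse-155A, 2.74 for mouse-155C, 8.23 for mouse-160B, 3.04 for mouse-164B and −1.22 for mouse-164C. By distinct chains, it was 2.38 for mouse-160A, 4.59 for mouse-160B, −2.8 for mouse-160C and 5.17 for mouse-164C. By distinct nucleotide chains, it was 2.46 for mouse-160A, 4.59 for mouse-160B, −2.69 for mouse-160C and 4.76 for mouse-164C. Without the most frequent TRB chain of any J gene in each table, it was −5.7 for mouse-160A, 4.59 for mouse-160B, −0.12 for mouse-160C, 2.21 for mouse-164B and 5.69 for mouse-164C. By distinct chains of paired barcodes, it was 1.89 for mouse-155A, 5.57 for mouse-160A, 3.13 for mouse-160C, 3.13 for mouse-164B and 5.42 for mouse-164C. Mouse-160C, reported as 1.82 by barcodes, was thus below 0 by distinct chains and by distinct nucleotide chains. It was also below 0 without the most frequent TRB chain of each table and without chains of several animals. Mouse-164C, reported as 2.60, was below 0 when weighted by transcripts.

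The number of V and TRBJ2 pairs at 1.2 or more or 0.8 or less was 28 by barcodes and 14 as reported. The TRBD2 share of D-called TRBJ2 chains was 55.4% with at least 2 transcripts, and 72.7% and 79.9% at 8 and 10 matched D bases, cut-offs chosen after the data were seen, as was the count by distinct chains of paired barcodes. The mean number of J bases lost was 3.02 by barcodes and 2.94 by chains. The mean CDR3 of TRBJ2-7 stayed 1.14 to 1.19 residues below that of the other members under all 4 alternatives. Of the values of single genes and V pairs, 22 moved by more than 1 SD over tables and 170 did not. The thymus median of TRBJ2-7 was 16.7% without chains of several animals, and its mean CDR3 13.4 residues. By barcodes, TRBV29 with TRBJ2-1 was at 1.03, on the other side of 1.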
